A study of Homo sapiens with 2 samples.

Results

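The COPII vesicle coat and the SAR1 GTPases that start its assembly comprised 10 genes among the 61806 in the count table. The members were picked by gene name, as a family, because SAR1A was lower with L1 in these same libraries, so the SAR1A difference is given as a description and supports nothing else. HEL is a human erythroleukemia cell line, wild type by its label, that carries erythroid and megakaryocytic features. Cells were kept for 24 h with L1 at 1 µM, a derivative of 3,3′-diindolylmethane, or with 0.5% DMSO. The labels give no DMSO concentration for the L1 library, so whether both received the same amount of solvent is not known here. RNA was captured by mRNA beads and sequenced as 1 library per condition, so no spread between cultures could be measured and no test was run. The question behind the contrast was which transcripts differ in erythroleukemia cells after L1, with protein processing in the endoplasmic reticulum (ER) as a theme of the study.

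COPII is the protein coat that buds vesicles from the ER and sends newly made proteins to the Golgi. SAR1, a small GTPase, is loaded with GTP by PREB at the ER membrane, inserts into the bilayer and recruits SEC23 with SEC24. SEC24 binds cargo and SEC23 speeds GTP hydrolysis by SAR1. SEC13 and SEC31 then join as the outer cage, which bends the membrane. In the erythroid lineage SEC23B has a known part, since its loss causes congenital dyserythropoietic anaemia type II, while loss of SAR1B causes chylomicron retention disease.

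Summed over genes, the DMSO library held 32556872 counts and the L1 library 27135647. All 10 members had between 871 and 4038 counts per library. Of 10 erythroid and megakaryocytic markers, among them GATA1, KLF1, HBG1 and ITGA2B, all were detected in both libraries, with at least 356 counts. Of 11 markers of other cell types, 6 had 0 counts in both libraries (CD3E, CD3D, MPO, ELANE, EPCAM and CDH5), CDH1, COL1A1 and COL1A2 had at most 6, CD79A had 113 and 60, and PECAM1, which platelets and their precursors also carry, had 4665 and 3026.

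SAR1A lies at chr10:70147289-70170523 on the minus strand (GENCODE release 29, GRCh38), and its exons overlap those of no other gene there. Its RefSeq start site (GRCh38.p14) is preceded by the 250 bases at chr10:70170515-70170764, minus strand. They are shown because SAR1A is the only member that differed by at least 2-fold. The capitals mark CCACGTC, the reverse complement of GACGTGG, and then CCGGAAGT.
SAR1A: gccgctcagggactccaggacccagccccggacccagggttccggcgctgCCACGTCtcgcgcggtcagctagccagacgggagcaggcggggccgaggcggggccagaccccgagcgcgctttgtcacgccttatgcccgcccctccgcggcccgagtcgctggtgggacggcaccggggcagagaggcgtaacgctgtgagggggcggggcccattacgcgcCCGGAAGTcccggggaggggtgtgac

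The start regions of the other members were read for the same letters, in windows of 250 bases before to 50 after each RefSeq start, on both strands. The table held 14 windows for 9 members, SEC24D not among them. GACGTGG, which is contained in the unfolded protein response element TGACGTGG, occurred in windows of 5 members, against 3.82% of all 27305 genes and 5.69% of the 5130 genes with windows and at least as many summed counts as the lowest member. It was chosen after the sequences had been read. The 4 members besides SAR1A are shown with 10 bases on each side and the match in capitals, since they share the string.
SEC23A (chr14:39103222-39103248, minus strand): ccctcctcttGACGTGGcagaggcggc
SEC24A (chr5:134648597-134648623, plus strand): gagagtcggtGACGTGGcggcgaggcc
SEC24C (chr10:73744289-73744315, plus strand): ccgaaatgcaGACGTGGcagaagaagt
SEC13 (chr3:10321072-10321098, minus strand): ccgggagctgCCACGTCcgagacctgg

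The full element TGACGTGG was found for SEC23A and SEC24A, against 0.927% of all genes and 1.35% of the deeply counted genes. The ER stress response element, searched as CCAAT, 9 bases and CCACG, and its second form, searched as ATTGG, any base and CCACG, were in none of the 14 windows. They occurred in 0.0916% and 0.0696% of all genes. CCGGAAGT, a string that ETS family factors are known to bind, was in windows of SAR1A, SEC24A, SEC24C, SEC13 and SEC31A, against 4.95% of all genes and 12.4% of the deeply counted genes. A match describes letters only, and neither binding nor promoter activity was measured. The members that held GACGTGG had log2 ratios of -1.51 (SAR1A, the lowest among members), 0.31 (SEC13 and SEC23A), 0.24 (SEC24A) and 0.15 (SEC24C). Whether the string bears on these ratios was not tested.

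SAR1A, the more abundant of the SAR1 GTPases in DMSO, had 2877 counts in DMSO and 871 in L1. Its level per length was 13.1 FPKM (fragments scaled to gene length and library size) in DMSO and 4.59 FPKM in L1. The log2 ratio of L1 over DMSO was -1.51, a level 2.85-fold lower, with an exact 95% interval from -1.62 to -1.40. Here and below, a log2 ratio is of counts scaled by edgeR's TMM method, and the interval (Clopper-Pearson, from the split of a gene's counts between the libraries) covers counting error only. In bulk RNA, fewer cells with a transcript and less of it per cell cannot be told apart. SAR1A was the 4th most abundant of the 10 members by FPKM in DMSO and the 8th in L1.

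SAR1B, the paralogue that chylomicron export is known to need, had 1707 counts in DMSO and 1710 in L1, or 4.97 and 5.77 FPKM. Its log2 ratio was 0.22 (0.12 to 0.31), on the other side of 0 from SAR1A. SAR1A was above SAR1B in DMSO and below it in L1, with an FPKM ratio of SAR1A to SAR1B of 2.63 in DMSO and 0.795 in L1. As a share of the counts of both genes, which no scaling between libraries can alter, SAR1A made up 62.8% (61.3 to 64.2) in DMSO and 33.7% (31.9 to 35.6) in L1. The odds ratio was 0.302 (0.273 to 0.335). Per length the SAR1A share was 72.5% of summed FPKM in DMSO and 44.3% in L1. Summed counts of both genes went from 4584 in DMSO to 2581 in L1, a log2 ratio of -0.62 (-0.69 to -0.55), so the sum was lower by less than SAR1A alone.

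The pair can be told apart by sequence. The coding sequences of SAR1A and SAR1B, each 594 bases long, were identical at 77.8% of positions, and only 5 of the 6989 words of 31 bases in SAR1A transcripts also occurred in SAR1B. In all, 462 of the 6989 words (6.61%) occurred in transcripts of another gene, most often SLIRP with 99. Among the shared words, 96 occurred in 4 annotated SAR1A pseudogenes, SAR1AP1, SAR1AP2, SAR1AP3 and SAR1AP4, all with 0 counts in both libraries. The ratio of SAR1A summed with its pseudogenes was therefore the same, -1.51.

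**Figure D1:**
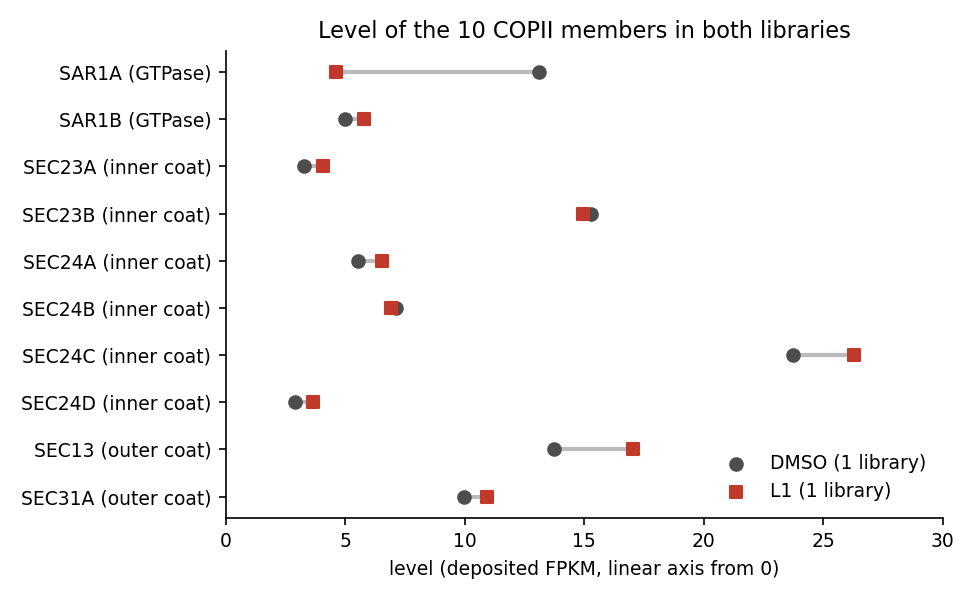
Level of each member in FPKM (horizontal axis, linear from 0) in the DMSO library (grey circle) and the L1 library (red square), 1 library each, with no error bar because there was no replicate. SAR1A moves from 13.1 to 4.59 FPKM, and the other 9 pairs of points lie close together.

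SEC23, the GTPase-activating part of the inner coat, is encoded by SEC23A and SEC23B. SEC23B had 2113 counts in DMSO and 1782 in L1, or 15.3 and 14.9 FPKM, with a log2 ratio of -0.03 (-0.12 to 0.06) that turned to 0.02 with total counts and 0.01 with upper quartile scaling. SEC23A had 898 and 961 counts, or 3.26 and 4.05 FPKM, with a log2 ratio of 0.31 (0.18 to 0.44). SEC23B was thus the more abundant gene in both libraries, 4.69 times SEC23A by FPKM in DMSO and 3.69 times in L1. The SEC23A share of the counts of the pair was 29.8% (28.2 to 31.5) in DMSO and 35.0% (33.2 to 36.9) in L1, an odds ratio of 1.27 (1.13 to 1.42). Summed SEC23 counts were 3011 and 2743, a log2 ratio of 0.08 (0.00 to 0.15).

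SEC24, the cargo-binding part, has 4 genes, and SEC24C was the most abundant of all 10 members in both libraries. SEC24C had 4038 counts in DMSO and 3858 in L1, or 23.7 and 26.3 FPKM, with a log2 ratio of 0.15 (0.08 to 0.21). SEC24D, its closer relative by coding sequence, was the least abundant member by FPKM. By counts, SEC23A was lower in both libraries and SAR1A was lower in L1. SEC24D had 907 and 988 counts, or 2.88 and 3.63 FPKM, and a log2 ratio of 0.34 (0.20 to 0.47), the highest among members.

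SEC24A and SEC24B form the other subfamily. SEC24A had 1286 and 1309 counts, or 5.55 and 6.55 FPKM, with a log2 ratio of 0.24 (0.13 to 0.35). SEC24B had 1183 and 989 counts, or 7.13 and 6.91 FPKM, with a log2 ratio of -0.05 (-0.17 to 0.08), and 0.00 with total counts. Coding identity over aligned bases was 68.1% for SEC24A with SEC24B and 66.3% for SEC24C with SEC24D, but 57.8% for SEC24A with SEC24C. The counting intervals of SEC24A and SEC24B did not overlap. Within SEC24 counts the share of SEC24C was 54.5% (53.3 to 55.6) in DMSO and 54.0% (52.8 to 55.2) in L1. The SEC24B share was 16.0% (15.1 to 16.8) and 13.8% (13.1 to 14.7), with an odds ratio of 0.846 (0.771 to 0.928). The SEC24D share was 12.2% (11.5 to 13.0) and 13.8% (13.0 to 14.7), with an odds ratio of 1.15 (1.04 to 1.27).

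The outer coat genes were both higher in L1 by a small margin. SEC13, a propeller protein that also sits in the nuclear pore, had 2345 counts in DMSO and 2514 in L1, or 13.7 and 17.0 FPKM, with a log2 ratio of 0.31 (0.23 to 0.40). SEC31A, its partner in the cage, had 2946 and 2790 counts, or 9.97 and 10.9 FPKM, with a log2 ratio of 0.13 (0.06 to 0.21). SEC31A shares 482 exon bases on its own strand with THAP9-AS1, which had 1215 and 817 counts. Summed with it, the SEC31A locus had a log2 ratio of 0.01 (-0.06 to 0.07), whose interval includes 0.

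**Figure D2:**
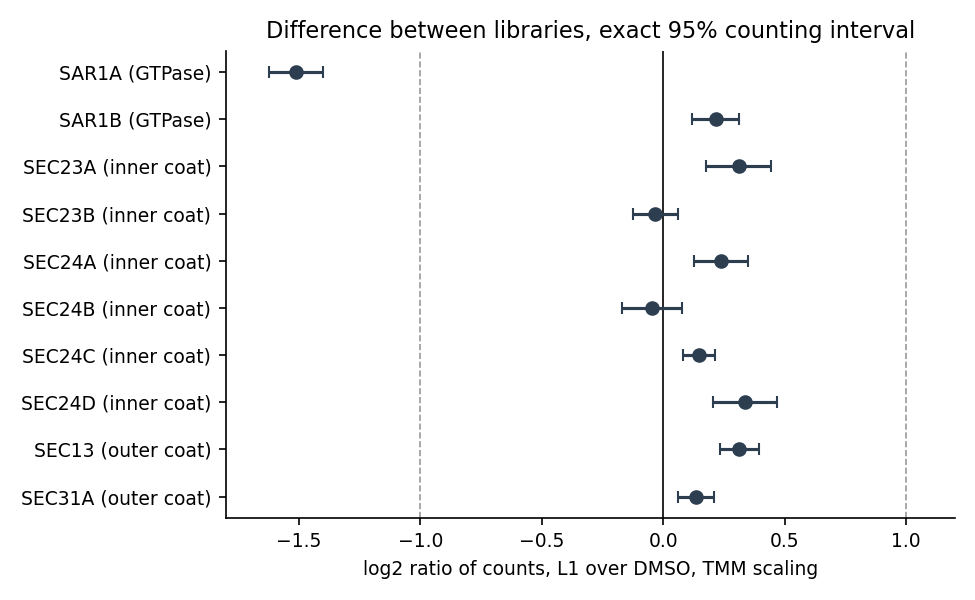
Log2 ratio of TMM-scaled counts, L1 over DMSO (horizontal axis), for each member, with bars for the exact 95% counting interval and dashed lines at -1 and 1. SAR1A at -1.51 stands beyond the lower line, and the other 9 members lie between -0.05 and 0.34.

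Counted over the coat, 1 of 10 members was at least 2-fold lower and 0 were at least 2-fold higher. Of all genes, 18123 reached 10 counts in either library, and of these 4.83% were 2-fold lower and 7.12% were 2-fold higher. Among the 6324 genes with at least 1859 summed counts, the sum of the lowest member, these were 1.69% and 1.77%. Since SAR1A chose the family, nothing is read from that count. Of the 6324 genes, 43 had a log2 ratio at or below that of SAR1A. The counting interval lay above 0 for 7 members, below 0 for SAR1A and across 0 for SEC23B and SEC24B. Over the 18123 genes 26.8% of intervals lay above 0 and 28.6% below, and over the 6324 genes 34.7% lay above and 40.5% below. The median log2 ratio was 0.18 over the 10 members and 0.22 over the 9 without SAR1A, against -0.00 over the 18123 genes and -0.02 over the 6324. The 9 other members spanned 0.969 to 1.26 in fold.

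The order of the levels was the same in both libraries apart from SAR1A and a swap of SEC23B with SEC13. By FPKM SEC23B was 1.12 times SEC13 (1.05 to 1.18) in DMSO, and SEC13 was 1.14 times SEC23B (1.07 to 1.21) in L1. In DMSO the order by FPKM was SEC24C, SEC23B, SEC13, SAR1A, SEC31A, SEC24B, SEC24A, SAR1B, SEC23A and SEC24D. In L1 it was SEC24C, SEC13, SEC23B, SEC31A, SEC24B, SEC24A, SAR1B, SAR1A, SEC23A and SEC24D. Of 9 neighbouring pairs in each order, 1 had a ratio whose counting interval held 1, namely SEC13 over SAR1A in DMSO (1.05, 0.991 to 1.11) and SEC24B over SEC24A in L1 (1.06, 0.971 to 1.15). The spread between cultures would come on top. The order also rests on the gene lengths that FPKM divides by. By counts, SEC31A (2946 in DMSO and 2790 in L1) was above SEC13 (2345 and 2514). Likewise SEC24A (1286 and 1309) was above SEC24B (1183 and 989) by counts. The summed level of the 10 members was 99.6 FPKM in DMSO and 100.7 FPKM in L1.

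The balance between components is given per length. Because SAR1A chose the family and made up most of SAR1 in DMSO, the SAR1 ratio is a description. Summed SAR1 was 0.974 times summed SEC23 by FPKM in DMSO and 0.546 times in L1. SEC24 was 2.12 times SEC23 in DMSO and 2.28 times in L1, and SEC13 was 1.38 times SEC31A in DMSO and 1.56 times in L1. By counts, without division by length, SEC13 was below SEC31A, with 44.3% of the outer coat counts in DMSO and 47.4% in L1. By summed counts the log2 ratio was 0.16 (0.11 to 0.21) for SEC24 and 0.22 (0.16 to 0.27) for the outer coat, beside -0.62 for SAR1.

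**Figure D3:**
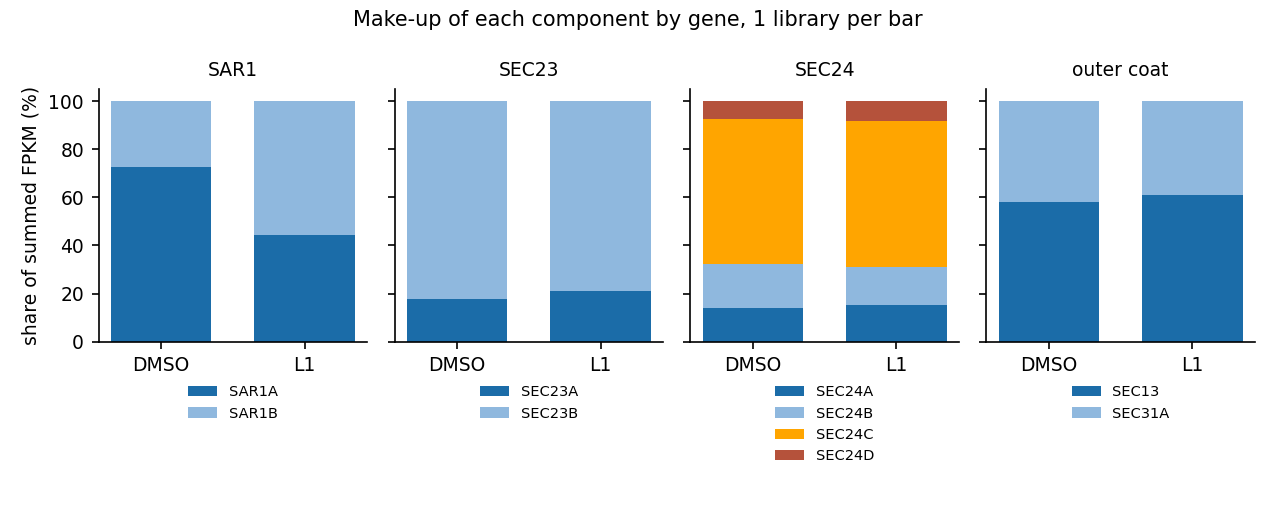
Share of each gene in the summed FPKM of its component (vertical axis, percent, from 0 to 100), for SAR1, SEC23, SEC24 and the outer coat, with a bar for the DMSO library and a bar for the L1 library. SAR1A takes 72.5% of SAR1 in DMSO and 44.3% in L1, while the make-up of SEC24 looks alike in both bars.

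Several members lie where reads could be assigned to another gene, and the strand setting of the counting is not given in the sources used here. SAR1B (chr5:134601144-134649271, minus strand) and SEC24A (chr5:134648789-134727823, plus strand) run head to head and share 385 exon bases on opposite strands. Both had similar ratios, 0.22 and 0.24. SEC24C shares exon bases with the opposite-strand transcript AC022400.8 (106 and 167 counts), which holds 39.8% of the 31-base words of SEC24C. SEC24B, SEC13 and SEC23A have opposite-strand partners with at most 62 counts, while SEC23B and SEC24D have none. Besides THAP9-AS1, SEC31A shares 84 exon bases with THAP9 on the opposite strand (189 and 176 counts). Of the pseudogenes, SEC13P1 had 3 and 0 counts and SEC24AP1 had 0 in both libraries.

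To describe the surroundings of SAR1A, the 3 nearest protein-coding genes with at least 100 counts on each side were read. On one side, SUPV3L1, HK1 and TSPAN15 lay 938, 745 and 640 kb away, and their log2 ratios were 0.01 (-0.11 to 0.12), -0.00 (-0.05 to 0.05) and -0.01 (-0.31 to 0.28). On the other side PPA1, a pyrophosphatase gene 32.3 kb away, had 5792 and 4558 counts and a log2 ratio of -0.13 (-0.19 to -0.08). EIF4EBP2, a translation repressor gene 234 kb away, had a log2 ratio of -0.41 (-0.47 to -0.34). PRF1, the perforin gene of cytotoxic cells 427 kb away, had 630 and 126 counts and a log2 ratio of -2.11 (-2.40 to -1.83). The intervals of 3 of the 6 neighbours, all on one side, lay below 0, beside 40.5% of the deeply counted genes and 28.6% of the 18123, so nothing is read from that count. The nearest of them, PPA1, differed less than SAR1A.

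**Figure D4:**
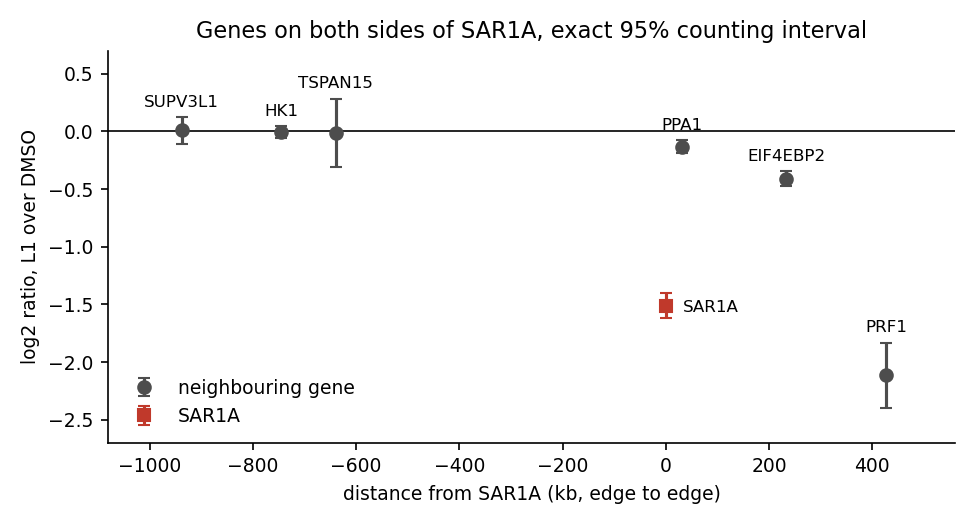
Log2 ratio of L1 over DMSO (vertical axis) against distance from SAR1A in kb (horizontal axis, edge to edge), for SAR1A (red square) and 6 neighbouring genes (grey circles), with exact 95% counting intervals. The 3 genes on the left lie between -0.01 and 0.01, PPA1 lies close to 0 at -0.13, and PRF1 at -2.11 lies below SAR1A.

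The genes that assemble and regulate the coat had a median near 0. Of 12 listed, 11 had enough counts, 8 of these were above 0, none was 2-fold changed, and the median log2 ratio was 0.07. PREB, the exchange factor that loads SAR1 with GTP, had 1302 and 944 counts and a log2 ratio of -0.25 (-0.37 to -0.13). SEC23IP, a SEC23-binding lipase-like protein, had a log2 ratio of 0.31 (0.22 to 0.40). CUL3, the ubiquitin ligase scaffold that modifies SEC31, was highest at 0.64 (0.57 to 0.70). SEC31B, the second SEC31 gene, had a log2 ratio of -0.19 (-0.33 to -0.05), but it shares exons on its strand with AL133352.1 (917 and 309 counts), and the locus sum had a log2 ratio of -0.64.

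Of 24 ER cargo receptor genes, 23 had enough counts, 14 of these were above 0 and the median log2 ratio was 0.06. None was 2-fold higher, and 1 was 2-fold lower, CNIH2, with 10 counts under DMSO and 0 under L1. Set against a floor of 3 counts, with the 10 counts taken as exact, it was 2.88-fold lower. Its counting interval reached up to a log2 ratio of -0.95, short of 2-fold. CNIH2 falls outside the naming rule and was named after its values were seen. SURF4, a receptor for soluble cargo, had 4534 and 6631 counts and a log2 ratio of 0.76 (0.71 to 0.82), and BCAP31, which escorts membrane proteins, had 0.36 (0.26 to 0.46). ERGIC1, a cycling receptor of the intermediate compartment, had a log2 ratio of -0.38 (-0.44 to -0.32), and BCAP29 had -0.26 (-0.43 to -0.10).

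Of 33 genes for ER to Golgi tethers, SNAREs and RAB1, all had enough counts, 22 were above 0, and the median log2 ratio was 0.15. In this list 2 genes were 2-fold higher and none was 2-fold lower. YKT6, a lipid-anchored SNARE, had 1011 and 2409 counts, or 4.14 and 11.4 FPKM, with a log2 ratio of 1.47 (1.36 to 1.57). TRAPPC5, a TRAPP tether subunit, had 32 and 335 counts and a log2 ratio of 3.60 (3.08 to 4.17). It shares 613 exon bases on its strand with AC008763.3, which had 387 and 0 counts, and their sum was 419 and 335 counts, a log2 ratio of -0.11 (-0.32 to 0.10). TRAPPC13 was lowest at -0.76 (-0.96 to -0.57), and -0.49 (-0.65 to -0.34) when summed with SHLD3, which shares 342 exon bases on its strand. The SNARE GOSR2 followed at -0.27 (-0.40 to -0.14).

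A list of 20 genes held the subunits of the COPI coat, which returns proteins from the Golgi to the ER, with the ARF GTPases and their regulators and the KDEL receptors. All had enough counts and 14 were above 0, with a median log2 ratio of 0.13. One gene, ARCN1, which encodes the delta subunit of COPI, was 2-fold higher with 5170 and 9480 counts, or 38.9 and 82.8 FPKM, and a log2 ratio of 1.09 (1.04 to 1.14). ARF1, the GTPase that recruits COPI as SAR1 does COPII, had a log2 ratio of 0.28 (0.24 to 0.33). ARF3 had -0.39 (-0.43 to -0.35). ARFGAP3, which speeds GTP hydrolysis by ARF1 and so switches it off, had 1405 and 1049 counts and a log2 ratio of -0.21 (-0.33 to -0.09). It shares 155 exon bases on its strand with PACSIN2, a separate gene with 2508 and 2911 counts and a log2 ratio of 0.43. The sum of both genes had 0.23 (0.17 to 0.29), with more counts from PACSIN2 than from ARFGAP3.

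The share above 0 was 72.7% for the assembly list, 60.9% for cargo receptors, 66.7% for tethers and 70.0% for the COPI list, and 49.6% of the 18123 genes and 46.9% of the 6324 deeply counted genes were above 0. In the same order of lists, the counting interval lay above 0 for 5, 9, 19 and 11 genes and below 0 for 2, 6, 8 and 5. Of the 18123 genes, 26.8% lay above and 28.6% below, and of the 6324 genes 34.7% and 40.5%. No order between lists was tested.

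**Figure D5:**
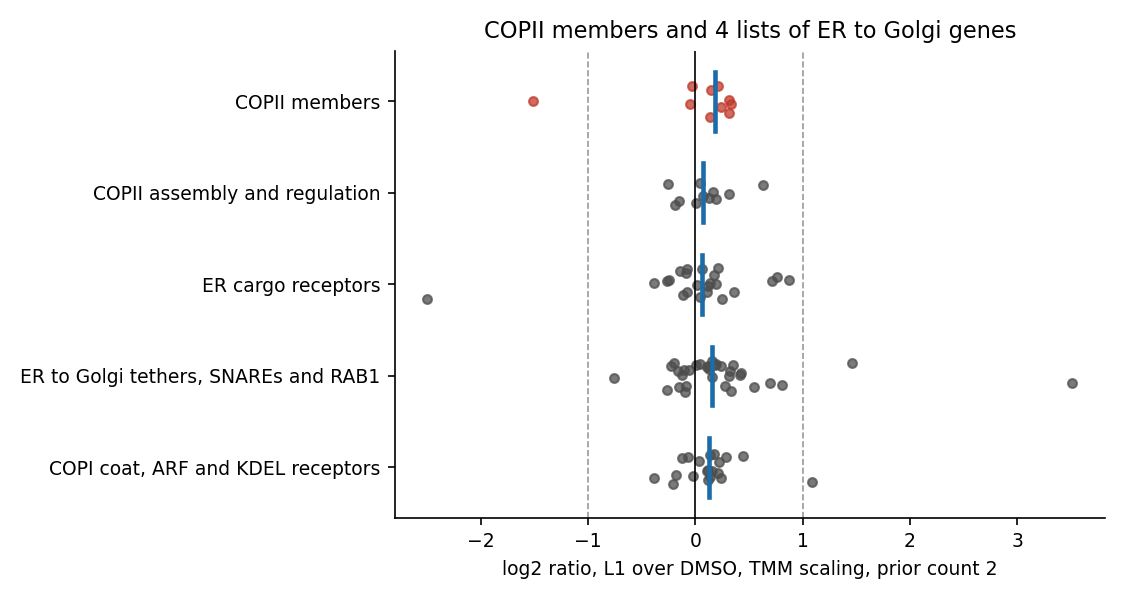
Log2 ratio of L1 over DMSO with a prior count of 2 (horizontal axis) for each gene with enough counts, by list (rows), with the list median as a blue line and dashed lines at -1 and 1. Medians lie between 0.06 and 0.18, SAR1A is the far left point of the top row, CNIH2 with 10 and 0 counts is the far left point of the cargo receptor row, and TRAPPC5 is the far right point.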

How the data were processed

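HEL cells were measured by mRNA sequencing (paired reads) in 1 library per condition. Per the labels, fastp 2.0, HISAT2 2.1.0, StringTie and the hg38 build were used. The counting program, its annotation and its treatment of strand and repeated reads are not given in the sources used here. The authors deposited raw counts for 61806 genes and, for 13924 genes, FPKM values, whose ratio between libraries was that of TMM-scaled counts. From the counts, TMM factors (edgeR 4.0.16) set the ratio of DMSO to L1 library size at 1.16. Size factors for another scaling came from DESeq2 1.42.0.

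The members and gene lists were chosen with earlier results of these data known. Across genes, a prior count of 2 was added and a gene was kept if either library reached 10 counts. A 2-fold rule took the place of a test. Single genes carry exact 95% intervals. Intervals cover counting error only, since there was 1 library per condition. They treat each read as a separate molecule, which duplicate reads from PCR are not. Named were all members, in each list the 2 highest and 2 lowest genes with at least 100 counts and any past 2-fold, SAR1A pseudogenes, same-strand overlaps and SAR1A neighbours. Some marker genes are not reported here.

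Positions and overlaps came from GENCODE release 29, which holds 58254 of the identifiers, and start windows from RefSeq (GRCh38.p14). Coding sequences were aligned globally with Biopython 1.88. Scripts were tested on simulated data. Alternatives comprised scaling by total counts, DESeq2 size factors, upper quartile scaling, FPKM with a pseudocount of 1 or 0.1, prior counts of 0.5 and 5, thresholds of 1.5-fold and 3-fold, other count minimums, FPKM shares and summed loci.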

Additional observations from a re-analysis of the deposited data

How the results depend on the processing

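No paired analysis was possible because there was 1 library per condition. Of 50 member log2 ratios under 3 other scalings and log2 FPKM with either pseudocount, 47 kept their sign, and the others were SEC23B and SEC24B, near 0. SAR1A ranged from -1.54 to -1.33, the latter with log2(FPKM + 1). Summed SAR1 was -0.75 and -0.79 with a pseudocount of 1 and 0.1, and summed SEC24 was 0.21 with total counts. FPKM divides SAR1B counts by a greater length than SAR1A counts, 10727 against 6868 bases as implied by counts and FPKM. The SAR1A share by FPKM was 72.5% in DMSO and 44.3% in L1.

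At 3-fold, 0 members were lower and 0 COPI list genes and 1 tether gene were higher. At 1.5-fold, 1 assembly, 3 cargo receptor and 4 tether genes were higher and 1 tether gene lower. For cargo receptors, a prior count of 0.5, or no minimum of 10 counts, gave 1 higher, while FPKM, or 10 counts in both libraries, gave 0 lower because CNIH2 was left out. FPKM gave 1 tether gene higher, since TRAPPC5 has no FPKM value. Summing overlapping genes gave a reversed sign for the TRAPPC5 locus, -0.11, and the ARFGAP3 locus, 0.23, where PACSIN2 held more counts than ARFGAP3. Such sums moved SEC31A to 0.01, SEC31B to -0.64 and TRAPPC13 to -0.49. They describe the loci, not the single genes. The cause was not tested for the other changes. The list medians stayed between the median lower bound and the median upper bound of the intervals of their genes, which is no error range for a median. Depth limits low genes such as CNIH2.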
